A study of Homo sapiens with 12 samples.

Results

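The mTOR complex 1 (mTORC1) nutrient sensing machinery of the lysosome was examined in human melanoma cells, as a set of 43 genes chosen by name. They code for the Rag GTPases, Ragulator, FLCN and the FNIP proteins, GATOR1, GATOR2, KICSTOR, the Sestrins and other amino acid sensors, the TSC complex and RHEB, 7 subunits of the mTOR complexes, the S6 kinases, the 4E-binding proteins and DDIT4. All 43 were among the 12616 genes listed for these libraries, 42 under the symbol used here and SAMTOR under an older symbol, C7orf60. RNA was measured by 3′ end sequencing of total RNA (QuantSeq Forward) in MeWo and SkMel28, which are established melanoma lines that express MITF, the transcription factor of the melanocyte lineage. Cells of both lines carried a hairpin against MITF that doxycycline (Dox) switches on, and were kept for 8 days with Dox at 1 µg/ml or at 0 µg/ml, the control. The 4 groups of 3 libraries were MeWo control, MeWo Dox, SkMel28 control and SkMel28 Dox, and they address whether the RNA of regulators of mTORC1 depends on MITF.

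The control libraries carried the same hairpin as the Dox libraries of their line, and no line without it received Dox here, so that a change with Dox is that of the hairpin and the drug together. Per the labels MeWo grew in EMEM and SkMel28 in RPMI, whereas the methods of the study give RPMI for its human melanoma lines, and if the labels hold, line and medium cannot be told apart. Whether each line is a clone is not given in the sources used here. Nothing ties the 3 libraries of a group to separate experiments, so the p-values measure the spread between these libraries, which may be technical.

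mTORC1 is a kinase complex that promotes protein and lipid synthesis and restrains autophagy and the lysosomal transcription factors TFEB and TFE3. When amino acids are present, Rag GTPase heterodimers held on the lysosome by Ragulator recruit mTORC1 to the lysosomal surface, where the small GTPase RHEB activates it. GATOR1 and the TSC complex switch off the Rags and RHEB respectively, GATOR2 counters GATOR1, and folliculin (FLCN) with its FNIP partners acts on RRAGC and RRAGD, a branch on which the mTORC1 control of TFEB and TFE3 depends.

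Each library held 2568187 to 3714608 reads, and values are reads normalised to 1000000 by an effective library size, so that 1 read was worth 0.278 to 0.389. Across genes, replicates correlated at 0.979 to 0.985 in the MeWo control, SkMel28 control and SkMel28 Dox groups. In MeWo Dox the coefficients were 0.960 for replicates 1 and 2, 0.969 for 1 and 3 and 0.976 for 2 and 3, so that MeWo Dox replicate 1 stood apart. All 9 melanocyte lineage markers examined were listed, whereas the defining keratinocyte markers KRT5 and KRT14, the fibroblast collagens COL1A1 and COL3A1 and the immune markers PTPRC and CD3E were not. Summed over the 9 melanocyte markers, MeWo libraries held 13102 to 13295 without and 6756 to 8440 with Dox, and SkMel28 libraries 11599 to 12932 without and 7722 to 8092 with it. PMEL held most of this sum in the controls and most of its fall, at means of 7450 and 3261 in MeWo control and Dox and 6562 and 2569 in SkMel28 control and Dox. In MeWo 6 of the 9 markers were called lower (MITF, SOX10, PMEL, MLANA, TYR and TYRP1) and 3 higher (DCT, S100B and S100A1, at 0.91, 1.96 and 1.03), beside 8.12% and 8.58% of all genes. The MeWo groups overlapped for SOX10 (289, 296 and 293 without and 312, 158 and 155 with Dox, adjusted p 0.0455). They also overlapped for TYR (346, 398 and 375 without and 389, 167 and 194 with Dox, adjusted p 0.0418). In SkMel28 3 were called lower (MITF, PMEL and MLANA), S100B was called higher (1.14), beside 5.04% and 5.88% of all genes, and 5 were not called. Of the other lists, 1 of 5 keratinocyte markers (KRT10), 2 of 5 fibroblast markers (LUM, and DCN at under 3 in every library) and 1 of 4 immune markers (CD68) were listed. The fibroblast pair summed to 41.5 to 47.8 without and 9.85 to 19.2 with Dox in MeWo, and to 10.9 to 13.3 and 6.04 to 8.91 in SkMel28. CD68 was 132 to 151 without and 57.5 to 147 with Dox in MeWo, and 78.2 to 101 and 18.7 to 23.0 in SkMel28, while KRT10 was 131 to 153 and 145 to 159.5 in MeWo and 86.2 to 104 and 111 to 117 in SkMel28. The part of these shifts in the results for the 43 genes was not tested. The target of the hairpin, MITF (chromosome 3, 69739456 to 69968336, + strand, hg38), measured 657, 663 and 708 in the control libraries and 451, 354 and 371 in the Dox libraries of MeWo. It measured 861, 739 and 792 in the control libraries and 575, 578 and 552 in the Dox libraries of SkMel28. The groups did not overlap in either line, and MITF fell by 0.79 (SE 0.11, adjusted p 6.49e-05) on the log2 scale in MeWo and by 0.49 (SE 0.11, adjusted p 0.00705) in SkMel28. The difference between these falls was not called (log2 −0.31, SE 0.15, adjusted p 0.225). That difference was called without MeWo Dox replicate 1 (−0.41, adjusted p 0.0169), and the SkMel28 call of MITF was lost with no mean-variance trend in the fit (adjusted p 0.05002). In bulk RNA, fewer cells of a type and less RNA per cell cannot be told apart.

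Changes with Dox are differences of log2(value + 1) and carry the standard error (SE) that limma gives. A gene counts as called where its p, adjusted over all 12616 genes, was under 0.05. In MeWo, 10 of the 43 genes (23.3%) were called, beside 16.7% of all genes. LAMTOR2, DEPDC5, SESN3, DEPTOR and DDIT4 were higher with Dox, 5 of 43 beside 8.58% of all genes. RRAGD, FNIP1, FNIP2, TBC1D7 and RHEB were lower, again 5 of 43, beside 8.12%. In SkMel28, 6 of 43 (14.0%) were called beside 10.9% of all genes. SESN3 and DEPTOR were higher there (5.88% of all genes were called higher), and FNIP2, TBC1D7, RHEB and EIF4EBP2 were lower (5.04% of all genes were called lower). Without MeWo Dox replicate 1 the MeWo count was 18 of 43 (41.9%), beside 31.0% of all genes. Without MeWo control replicate 2 or 3 or MeWo Dox replicate 2 or 3 it was 6, beside 10.2% to 11.7% of all genes. With each line fitted alone it was 5, beside 6.44%. Those 5 were DDIT4, FNIP2, RHEB, RRAGD and SESN3, and the MeWo calls of LAMTOR2, FNIP1, DEPDC5, DEPTOR and TBC1D7 were lost in that fit. The median change over the 43 genes was −0.18 in MeWo and −0.089 in SkMel28, where the median over all genes was 0 and 0.0029.

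The genes called in both lines in the same direction were FNIP2, TBC1D7 and RHEB, which fell, and SESN3 and DEPTOR, which rose. They are 5 of 43 (11.6%), beside 3.70% of all genes. For the fall alone the share of all genes was 1.79% and for the rise 1.91%. FNIP2 and SESN3 were called in both lines in every alternative run, whereas DEPTOR was called in both in 9 of the 23. The count of genes called in both lines was 3 without SkMel28 Dox replicate 2, where RHEB and DEPTOR left it, and 4 or 5 on leaving out any other library.

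**Figure D1:**
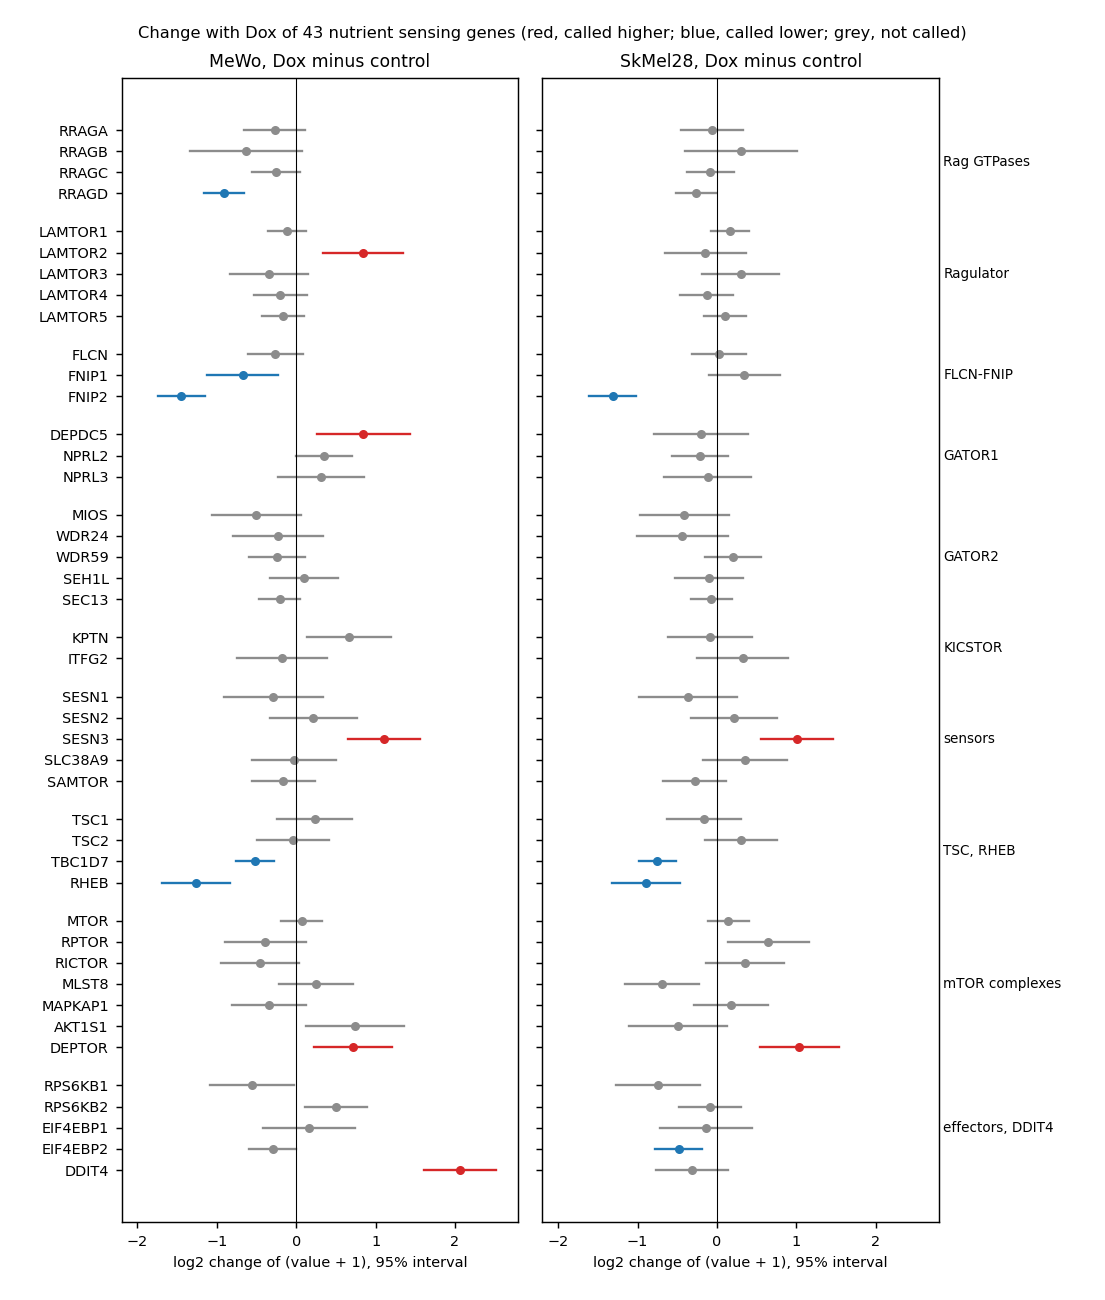
Change with Dox of each of the 43 genes in MeWo (left) and SkMel28 (right), on the log2(value + 1) scale, as the limma estimate (point) with its 95% interval (line), grouped by complex. Red and blue mark genes called higher and lower and grey those not called; FNIP2 (−1.45 and −1.32) and RHEB (−1.26 and −0.89) lie to the left of 0 in both panels and SESN3 (1.11 and 1.01) to the right, whereas DDIT4 stands at 2.06 in MeWo and −0.32 in SkMel28.

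FNIP2 (folliculin interacting protein 2, chromosome 4, 158769026 to 158908050, + strand) binds FLCN and is part of the complex that stimulates GTP hydrolysis by RRAGC and RRAGD. In MeWo it measured 56.2, 60.2 and 54.7 in the control libraries and 21.4, 18.6 and 21.0 in the Dox libraries. In SkMel28 it measured 76.6, 78.4 and 84.7 in the control libraries and 28.8, 30.1 and 36.0 in the Dox libraries. Every Dox library lay below every control library of its line. FNIP2 fell 2.81-fold in MeWo, where the mean went from 57.0 ± 2.85 to 20.3 ± 1.53 (mean ± SD, n = 3, log2 −1.45, SE 0.14, adjusted p 1.23e-06), and 2.53-fold in SkMel28, from 79.9 ± 4.26 to 31.6 ± 3.82 (log2 −1.32, SE 0.14, adjusted p 7.31e-06). The difference between the changes was −0.13 (95% interval −0.54 to 0.28, adjusted p 0.713). The study displays FNIP2 and RRAGD in MeWo from these libraries, so for both genes the MeWo change is not independent evidence. Separately, from MITF ChIP-seq in other cells, the study reports binding at the RRAGD promoter and at that of an FNIP2 isoform.

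FNIP1 (chromosome 5, 131641714 to 131797017, − strand), the paralog of FNIP2 with the same FLCN-binding role, differed between the lines. In MeWo it measured 38.0, 41.6 and 40.2 in the control libraries and 36.1, 17.1 and 24.0 in the Dox libraries. The SkMel28 values were 27.3, 26.0 and 26.8 in the control libraries and 41.3, 34.4 and 28.1 in the Dox libraries. The MeWo Dox libraries lay below the controls, with replicate 1 close to them, and the SkMel28 Dox libraries all lay above theirs. FNIP1 was called lower in MeWo (log2 −0.68, SE 0.21, adjusted p 0.0372) and was not called in SkMel28 (log2 0.34, SE 0.21, adjusted p 0.355). The difference of the changes was called at −1.02 (SE 0.30, adjusted p 0.0486). Both calls were close to the threshold, and the MeWo fall was called in 11 of 23 alternatives and the difference in 8 of 22. The MeWo call was lost on leaving out any MeWo control, MeWo Dox replicate 2 or 3, SkMel28 control replicate 3 or SkMel28 Dox replicate 2, at −0.71 to −0.42 (adjusted p 0.0503 to 0.179). The difference was called only without MeWo Dox replicate 1 or SkMel28 Dox replicate 3 and lost without each of the other 10 libraries, at −1.05 to −0.77. Scaling to the spike-in RNAs gave −0.41 (adjusted p 0.267) for the MeWo change and −0.66 (adjusted p 0.226) for the difference, neither of them called. Without MeWo Dox replicate 1 the MeWo change was −0.94 (adjusted p 0.000549).

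FLCN (chromosome 17, 17212212 to 17237188, − strand), folliculin itself, measured 76.9, 63.7 and 59.3 in the control libraries and 66.7, 45.1 and 55.5 in the Dox libraries of MeWo, where the groups overlapped. For SkMel28 the values were 31.2, 26.0 and 27.6 in the control libraries and 30.0, 30.1 and 26.3 in the Dox libraries, again with overlap. It was called in neither line, at −0.26 (SE 0.16, adjusted p 0.297) in MeWo and 0.027 (SE 0.16, adjusted p 0.951) in SkMel28. In MeWo the 95% interval of its change was −0.60 to 0.081, and that of FNIP2 was −1.74 to −1.15. FLCN overlaps MPRIP on the other strand, which was called in neither line.

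MITF, TFEB and TFE3 belong to a family of transcription factors that bind CACGTG and related letters such as TCATGTG. Promoter windows of 300 bases (250 before and 50 after an annotated start) were taken from RefSeq on GRCh38.p14. The search covered 47 windows of 36 of the 43 genes. AKT1S1, DEPTOR, EIF4EBP1, MLST8, RRAGA, RRAGD and WDR24 were not searched, which does not show that RefSeq lacks windows for them. CACGTG, searched on both strands, was in 7 of the 47 windows (14.9%), those of FNIP1, LAMTOR1, LAMTOR4, NPRL3, RRAGB, RRAGC and TSC2, beside 7.26% of the 35116 windows in all. TCATGTG was in 3 of the 47 (6.38%), those of FNIP2, LAMTOR1 and LAMTOR3, beside 2.92% of all windows. The longer TCACGTGA, which contains CACGTG, was in 2 (4.26%), those of RRAGB and TSC2, beside 0.980% of all. Of the genes called in both lines, FNIP2 had a match, TBC1D7, RHEB and SESN3 had none in these windows, and DEPTOR was not searched. The windows of DDIT4, EIF4EBP2 and FLCN had none either. A match is a run of letters and does not show a bound site.

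The windows of FNIP2 are shown because it had the most negative change of the 43 genes in both lines, and those of FNIP1 and RRAGC to set a paralog and a neighbour in the pathway beside it. They are FNIP2 at its upstream start (chr4:158768776-158769075, + strand), FNIP2 at a start further along the gene (chr4:158805589-158805888, + strand), FNIP1 (chr5:131796968-131797267, − strand) and RRAGC (chr1:38859723-38860022, − strand). Each is written 5′ to 3′ on the strand of the gene, and capitals mark CACGTG or TCATGTG on either strand.
FNIP2 upstream start: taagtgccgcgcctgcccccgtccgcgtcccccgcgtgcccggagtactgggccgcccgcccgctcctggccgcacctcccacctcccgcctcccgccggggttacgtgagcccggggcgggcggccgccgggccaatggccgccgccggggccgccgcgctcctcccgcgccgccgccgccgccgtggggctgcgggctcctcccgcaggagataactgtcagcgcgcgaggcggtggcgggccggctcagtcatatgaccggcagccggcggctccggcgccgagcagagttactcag
FNIP2 further start: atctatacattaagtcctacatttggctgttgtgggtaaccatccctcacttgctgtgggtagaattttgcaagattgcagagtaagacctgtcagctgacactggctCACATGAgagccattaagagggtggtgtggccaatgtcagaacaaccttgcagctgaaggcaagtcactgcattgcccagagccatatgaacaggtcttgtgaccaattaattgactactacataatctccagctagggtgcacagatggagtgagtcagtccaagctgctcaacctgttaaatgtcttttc
FNIP1: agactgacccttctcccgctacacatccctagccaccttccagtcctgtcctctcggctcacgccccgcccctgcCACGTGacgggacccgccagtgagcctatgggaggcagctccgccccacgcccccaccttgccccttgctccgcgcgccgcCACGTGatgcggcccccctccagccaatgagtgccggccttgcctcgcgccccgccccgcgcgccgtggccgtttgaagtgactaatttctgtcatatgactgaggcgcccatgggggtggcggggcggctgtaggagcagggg
RRAGC: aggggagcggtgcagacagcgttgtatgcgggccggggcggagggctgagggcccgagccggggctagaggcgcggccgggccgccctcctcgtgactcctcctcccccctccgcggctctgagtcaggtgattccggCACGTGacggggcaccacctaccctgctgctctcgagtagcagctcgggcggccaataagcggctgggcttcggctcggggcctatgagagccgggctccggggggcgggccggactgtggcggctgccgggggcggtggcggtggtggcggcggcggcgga
The upstream FNIP2 window had no capitals, and the further window had TCATGTG, which reads CACATGA on the strand shown, with its first base 142 bases before the start. FNIP1 had CACGTG with its first base 175 and 94 bases before its start, and RRAGC had it 112 bases before.

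Rag GTPases work as a pair of RRAGA or RRAGB with RRAGC or RRAGD. RRAGD (chromosome 6, 89364616 to 89412273, − strand) measured 147, 144 and 137 in the control libraries and 84.9, 74.7 and 67.7 in the Dox libraries of MeWo. SkMel28 libraries gave 131, 131 and 111 in the control libraries and 104, 99.6 and 105 in the Dox libraries. The Dox libraries lay below the controls in both lines, with a wider gap in MeWo. RRAGD fell 1.88-fold in MeWo, where the mean went from 143 ± 4.97 to 75.8 ± 8.64 (log2 −0.91, SE 0.12, adjusted p 4.06e-05), and was not called in SkMel28, at 124 ± 11.7 and 103 ± 2.997 (log2 −0.27, SE 0.12, adjusted p 0.182). The difference of the changes was −0.64 (SE 0.17, adjusted p 0.0297), and 12 of 22 alternatives called it. That call was lost on leaving out any MeWo control, MeWo Dox replicate 3, SkMel28 control replicate 3 or any SkMel28 Dox library, at −0.67 to −0.56 (adjusted p 0.0570 to 0.0838). With spike-in scaling the difference was −0.27 (adjusted p 0.534).

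RRAGC (chromosome 1, 38838198 to 38859772, − strand), which takes the same place in the heterodimer as RRAGD, measured 122, 131 and 119.5 in the control libraries and 127, 94.8 and 92.8 in the Dox libraries of MeWo. The values in SkMel28 were 151, 121 and 127 in the control libraries and 112, 120.3 and 146 in the Dox libraries. The groups overlapped in both lines and RRAGC was called in neither (log2 −0.25, SE 0.14, adjusted p 0.242 in MeWo and log2 −0.082, SE 0.14, adjusted p 0.797 in SkMel28). MeWo Dox replicate 1 lay within the range of the controls, and without it RRAGC was called in MeWo at −0.40 (adjusted p 0.0214).

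RRAGA (chromosome 9, 19049427 to 19051025, + strand) measured 110.3, 101 and 91.7 in the control libraries and 113, 74.7 and 68.4 in the Dox libraries of MeWo. In SkMel28 it measured 192, 124 and 188 in the control libraries and 161, 139.7 and 173 in the Dox libraries. Groups overlapped and neither change was called (log2 −0.27, SE 0.18, adjusted p 0.345 in MeWo and log2 −0.067, SE 0.18, adjusted p 0.876 in SkMel28), although without MeWo Dox replicate 1 the MeWo change was called at −0.49 (adjusted p 0.0222). RRAGB can take the place of RRAGA in the pair. RRAGB (chromosome X, 55717749 to 55758774, + strand) was near the limit of detection, at 0.864, 2.72 and 2.27 in the control libraries and 0.638, 0.379 and 1.69 in the Dox libraries of MeWo, where its change was −0.63 (SE 0.33, adjusted p 0.212). The SkMel28 values were 1.67, 1.90 and 0.766 in the control libraries and 2.08, 2.34 and 1.51 in the Dox libraries (log2 0.30, SE 0.33, adjusted p 0.651). No library held more than 7 RRAGB reads, so that a change in it was not detectable at this depth. RRAGA has a named pseudogene, and how reads matching several places were handled is not given in the sources used here.

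Ragulator anchors the Rag GTPases to the lysosomal membrane. LAMTOR1 (chromosome 11, 72085895 to 72103297, − strand), the subunit with the lipid anchor, was not called in either line (log2 −0.11 in MeWo and 0.16 in SkMel28), with 95% intervals of −0.35 to 0.13 and −0.076 to 0.40. LAMTOR2 (chromosome 1, 156054782 to 156058506, + strand) measured 43.8, 38.5 and 37.2 in the control libraries and 42.1, 99.3 and 89.1 in the Dox libraries of MeWo. The first Dox library lay among the controls and the other 2 lay above them, at more than any other library of the series. LAMTOR2 was called higher in MeWo (log2 0.84, SE 0.24, adjusted p 0.0232), and the call was lost without MeWo control replicate 2 or 3 or MeWo Dox replicate 2 or 3, at 0.61 to 0.82 (adjusted p 0.0815 to 0.117). In SkMel28 LAMTOR2 was not called, with 37.9, 50.8 and 49.8 in the control libraries and 34.1, 46.5 and 44.1 in the Dox libraries (log2 −0.15, SE 0.24, adjusted p 0.781). LAMTOR3, LAMTOR4 and LAMTOR5, the remaining subunits, were not called in either line, with changes of −0.34, −0.20 and −0.17 in MeWo and 0.30, −0.13 and 0.099 in SkMel28.

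GATOR1 switches off RRAGA and RRAGB when amino acids are scarce. Its subunit DEPDC5 (chromosome 22, 31753867 to 31908033, + strand) measured 6.91, 8.55 and 5.18 in the control libraries and 7.34, 18.2 and 15.9 in the Dox libraries of MeWo, and in SkMel28 11.4, 14.3 and 13.0 in the control libraries and 11.6, 9.69 and 12.1 in the Dox libraries. As for LAMTOR2, the first MeWo Dox library lay within the control range and the other 2 above it. DEPDC5 was called higher in MeWo (log2 0.85, SE 0.28, adjusted p 0.0469), a call kept in 9 of 23 alternatives, and not in SkMel28 (log2 −0.20, SE 0.28, adjusted p 0.737). The MeWo call was lost on leaving out any library other than MeWo Dox replicate 1, at 0.61 to 1.00 (adjusted p 0.0562 to 0.201). NPRL2 and NPRL3, the remaining GATOR1 subunits, were not called, at 0.35 and 0.31 in MeWo and −0.21 and −0.12 in SkMel28.

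No subunit of GATOR2 or KICSTOR was called in either line. For GATOR2, which opposes GATOR1, the changes of MIOS, WDR24, WDR59, SEH1L and SEC13 ran from −0.50 (MIOS) to 0.097 (SEH1L) in MeWo and from −0.43 (WDR24) to 0.20 (WDR59) in SkMel28. SEH1L and SEC13 are also part of the nuclear pore. The KICSTOR subunit KPTN, which helps to place GATOR1 on the lysosome, stood at 0.66 (adjusted p 0.0801) in MeWo and −0.089 in SkMel28, and ITFG2 stood at −0.18 and 0.32. KPTN in MeWo measured 4.61, 2.72 and 2.59 in the control libraries and 6.06, 4.93 and 6.10 in the Dox libraries, and its Dox libraries all lay above the controls at these low values.

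The Sestrins are stress-induced proteins that restrain mTORC1 through GATOR2. SESN3 (chromosome 11, 95165513 to 95232541, − strand) measured 8.35, 6.60 and 6.80 in the control libraries and 12.4, 17.8 and 21.0 in the Dox libraries of MeWo. SkMel28 libraries gave 23.4, 35.9 and 37.9 in the control libraries and 71.5, 64.8 and 59.2 in the Dox libraries. Every Dox library lay above every control library of its line. SESN3 rose 2.36-fold in MeWo, where the mean went from 7.25 ± 0.956 to 17.1 ± 4.32 (log2 1.11, SE 0.21, adjusted p 0.00161), and 2.01-fold in SkMel28, from 32.4 ± 7.87 to 65.2 ± 6.17 (log2 1.01, SE 0.21, adjusted p 0.00459). The difference of the changes was 0.096 (95% interval −0.54 to 0.74, adjusted p 0.873). SESN1, which measured under 10 in every library, and SESN2 were not called, at −0.29 and 0.22 in MeWo and −0.37 and 0.22 in SkMel28. SLC38A9, a lysosomal arginine sensor, stood at −0.027 and 0.35, and SAMTOR, the S-adenosylmethionine sensor, at −0.16 and −0.28, neither of them called.

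**Figure D2:**
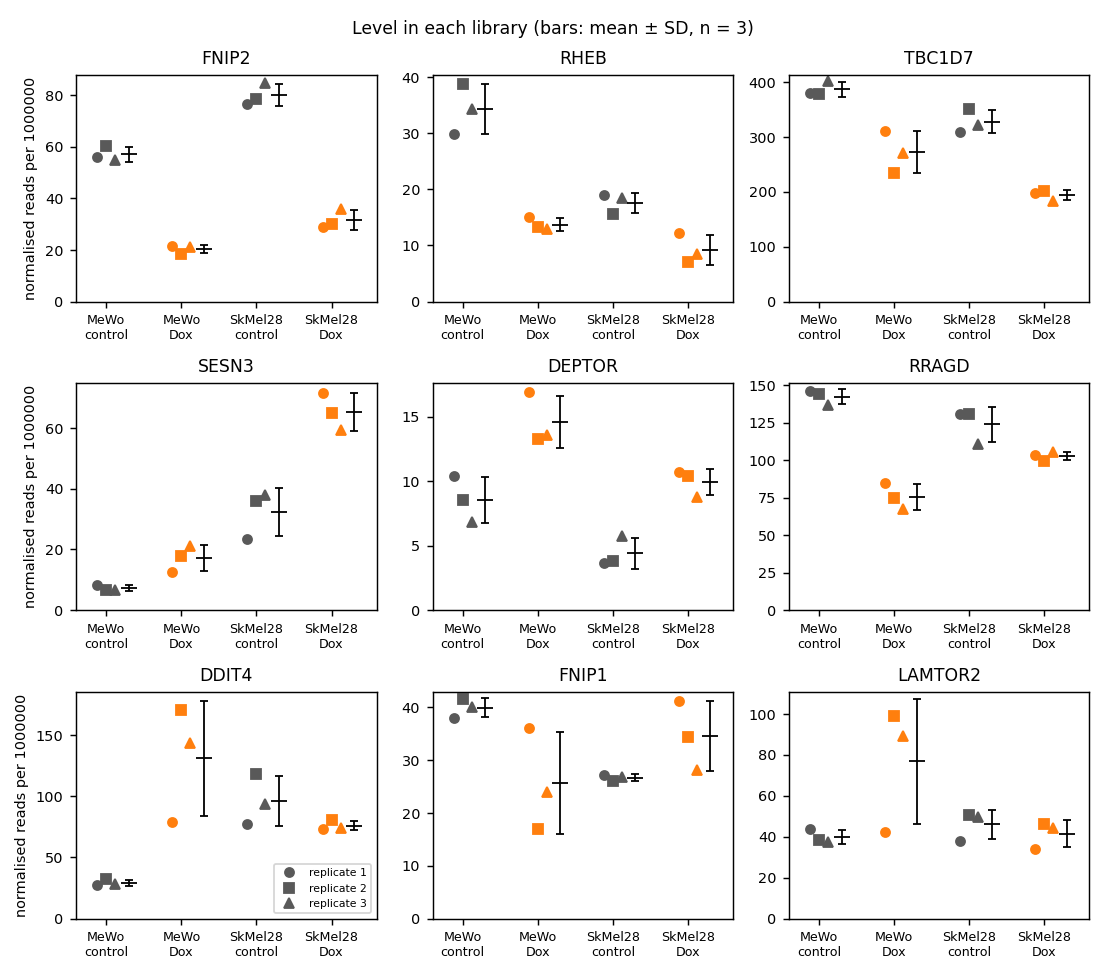
Level of 9 of the genes in each library, as reads normalised to 1000000, on linear axes from 0. Grey symbols are control and orange Dox libraries, shapes give the replicate number, and bars are the mean ± SD of 3 libraries. FNIP2, RHEB, TBC1D7, SESN3 and DEPTOR separated in both lines, and in MeWo Dox replicate 1 (circle) LAMTOR2 was 42.1 where replicates 2 and 3 were 99.3 and 89.1.

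RHEB, the GTPase that activates mTORC1, fell in both lines. RHEB (chromosome 7, 151466012 to 151520120, − strand) measured 29.9, 38.9 and 34.3 in the control libraries and 15.0, 13.3 and 12.9 in the Dox libraries of MeWo. The values in SkMel28 were 18.9, 15.5 and 18.4 in the control libraries and 12.2, 7.02 and 8.46 in the Dox libraries. Control and Dox libraries did not overlap in either line. It fell 2.51-fold in MeWo, where the mean went from 34.4 ± 4.45 to 13.7 ± 1.13 (log2 −1.26, SE 0.20, adjusted p 0.000335), and 1.91-fold in SkMel28, from 17.6 ± 1.82 to 9.22 ± 2.66 (log2 −0.89, SE 0.20, adjusted p 0.00816). The SkMel28 call was lost without SkMel28 Dox replicate 2, the lowest library, at −0.73 (adjusted p 0.0588). RHEB has 3 named pseudogenes, and the share of its reads that could have come from them is not known.

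TBC1D7 (chromosome 6, 13266542 to 13328583, − strand), a subunit that stabilises the TSC complex, measured 379.8, 379 and 403 in the control libraries and 311, 235 and 272 in the Dox libraries of MeWo. In SkMel28 it measured 309.9, 351 and 323 in the control libraries and 198, 201 and 184 in the Dox libraries. The groups were again apart in both lines. In MeWo TBC1D7 fell from a mean of 387 ± 13.7 to 273 ± 38.0 (log2 −0.51, SE 0.11, adjusted p 0.00431) and in SkMel28 from 328 ± 21.2 to 194 ± 8.90 (log2 −0.75, SE 0.11, adjusted p 0.000253). In MeWo the call was lost when libraries were scaled to the spike-in RNAs, at −0.24 (adjusted p 0.373), and when MeWo was fitted alone (adjusted p 0.0581). TSC1 and TSC2, which together inactivate RHEB, were not called, at 0.23 and −0.041 in MeWo and −0.16 and 0.31 in SkMel28. TBC1D7 overlaps PHACTR1 on the other strand, which measured 69.5 ± 6.52 and 60.0 ± 7.10 in MeWo control and Dox and 1.16 ± 0.220 and 1.57 ± 0.596 in SkMel28.

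DEPTOR, an inhibitory subunit of both mTOR complexes, rose in both lines. It measured 10.4, 8.55 and 6.80 in the control libraries and 16.9, 13.3 and 13.5 in the Dox libraries of MeWo. The SkMel28 values were 3.62, 3.81 and 5.75 in the control libraries and 10.7, 10.4 and 8.76 in the Dox libraries. The groups did not overlap in either line. DEPTOR rose 1.70-fold in MeWo (means of 8.57 ± 1.78 and 14.6 ± 2.03 without and with Dox, log2 0.71, SE 0.23, adjusted p 0.0457) and 2.26-fold in SkMel28 (means of 4.39 ± 1.18 and 9.94 ± 1.03 without and with Dox, log2 1.04, SE 0.23, adjusted p 0.0073), and the difference of the changes was −0.33 (95% interval −1.02 to 0.37). The MeWo call was kept in 9 of 23 alternatives and the SkMel28 call in all 23. On leaving out 1 library the MeWo call was kept only without MeWo control replicate 1 or SkMel28 control replicate 2 or 3, and without the other 9 it was 0.57 to 0.77 (adjusted p 0.0513 to 0.179).

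Of the 7 subunits of the mTOR complexes among the 43 genes, DEPTOR was the only one called in either line. MTOR, the kinase, measured 44.3, 40.0 and 43.1 in the control libraries and 42.1, 45.9 and 46.1 in the Dox libraries of MeWo and 62.1, 63.5 and 68.6 in the control libraries and 69.2, 70.5 and 74.9 in the Dox libraries of SkMel28. Its changes were 0.072 (95% interval −0.19 to 0.33) and 0.14 (−0.12 to 0.40). MTOR overlaps ANGPTL7 on the other strand, which rose in SkMel28 from 1.89 ± 0.922 to 100.5 ± 6.45 (log2 5.19, adjusted p 5.89e-08), and the strand setting of the counting is not given in the sources used here. RPTOR, the substrate-binding subunit of mTORC1, stood at −0.39 in MeWo and 0.65 (adjusted p 0.101) in SkMel28, with its Dox libraries below the controls in MeWo and above them in SkMel28. The difference between those changes was −1.04 (adjusted p 0.071). RICTOR and MAPKAP1, which belong to mTOR complex 2, stood at −0.46 and −0.34 in MeWo and 0.36 and 0.18 in SkMel28. MLST8, shared by both complexes, stood at 0.25 in MeWo and −0.70 (adjusted p 0.0512) in SkMel28, just outside the threshold. AKT1S1, the mTORC1 inhibitor also called PRAS40, stood at 0.74 (adjusted p 0.0959) and −0.49 (adjusted p 0.34).

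Among the substrates of mTORC1, the 4E-binding protein EIF4EBP2 (chromosome 10, 70404145 to 70428618, + strand), a repressor of cap-dependent translation, measured 41.5, 40.6 and 47.1 in the control libraries and 33.8, 27.1 and 30.8 in the Dox libraries of SkMel28. In MeWo it measured 91.0, 98.3 and 85.8 in the control libraries and 63.5, 83.8 and 77.2 in the Dox libraries. The Dox libraries lay below the controls in both lines. EIF4EBP2 was called lower in SkMel28 (log2 −0.48, SE 0.14, adjusted p 0.0367, kept in 11 of 23 alternatives) and not in MeWo (log2 −0.30, SE 0.14, adjusted p 0.168), and the difference between the lines was 0.19 (95% interval −0.24 to 0.61). The SkMel28 call was lost without any of the 6 control libraries or without SkMel28 Dox replicate 2 or 3, at −0.52 to −0.40. EIF4EBP2 has 3 named pseudogenes. EIF4EBP1 was not called (0.16 and −0.14). Of the S6 kinases, RPS6KB1 stood at −0.56 in MeWo and −0.74 in SkMel28 (adjusted p 0.14 and 0.0681), and RPS6KB2 at 0.50 and −0.085 (adjusted p 0.0764 and 0.841).

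DDIT4 (chromosome 10, 72273919 to 72276036, + strand), also called REDD1, is induced by hypoxia and other stresses and lowers mTORC1 activity through the TSC complex. In MeWo it measured 27.4, 32.2 and 28.2 in the control libraries and 79.2, 171 and 143 in the Dox libraries. For SkMel28 the values were 77.4, 118 and 93.9 in the control libraries and 73.3, 80.5 and 74.3 in the Dox libraries. All MeWo Dox libraries lay above the MeWo controls, with replicate 1 the lowest of them, whereas the SkMel28 groups overlapped. DDIT4 rose 4.48-fold in MeWo, where the mean went from 29.3 ± 2.62 to 131 ± 46.9 (log2 2.06, SE 0.22, adjusted p 3.45e-06), and was not called in SkMel28 (log2 −0.32, SE 0.22, adjusted p 0.406, 95% interval −0.77 to 0.14). The difference of the changes was 2.38 (SE 0.30, adjusted p 0.000182) and was called in all 22 alternatives. In this comparison 3 of the 43 genes (6.98%) were called, beside 7.09% of all genes, DDIT4 with the higher change in MeWo (3.71% of all genes) and RRAGD and FNIP1 with the lower (3.38% of all genes). Without MeWo Dox replicate 1 that count was 12, beside 24.7% of all genes. Without any MeWo control, MeWo Dox replicate 3, SkMel28 control replicate 3 or SkMel28 Dox replicate 1 or 2 it was 1 (3.56% to 4.74% of all genes), and without each of the other 4 libraries it was 2 (4.18% to 5.93% of all genes).

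For the genes that were not called, the intervals show how far a change could be seen. In MeWo, 28 of the 33 uncalled genes had a 95% interval inside ±1 on the log2 scale and 5 inside ±0.5. In SkMel28, 31 of 37 lay inside ±1 and 9 inside ±0.5. RRAGB, AKT1S1 and RPS6KB1 reached beyond ±1 in both lines, so that a 2-fold change of these genes lay within their intervals. At low values a 2-fold change is smaller than 1 on the log2(value + 1) scale. An interval inside ±1 therefore does not exclude such a change for low genes such as SESN1, at −0.91 to 0.33 in MeWo. For the difference between the lines, 21 of 40 uncalled genes lay inside ±1 and 2 inside ±0.5. The Dox and control libraries did not overlap for 14 of the 43 genes in MeWo (28.8% of all genes) and for 15 in SkMel28 (32.3% of all genes). In MeWo the Dox libraries were all above the controls for 5 genes (14.1% of all genes) and all below for 9 (14.7% of all genes). In SkMel28 they were all above for 7 (16.1% of all genes) and all below for 8 (16.1% of all genes).

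MeWo Dox replicate 1 stood apart for several of these genes. For 13 of the 43 (30.2%) its value lay within the range of the MeWo controls while replicates 2 and 3 both lay outside it on the same side, beside 15.2% of all genes. With replicate 2 or replicate 3 as the library inside the control range, this held for 2 and 1 of the 43, beside 4.89% and 4.30% of all genes. LAMTOR2, DEPDC5, MTOR, AKT1S1 and RPS6KB2 had the other 2 libraries above the controls, and RRAGC, LAMTOR3, LAMTOR5, FLCN, WDR59, SEC13, RICTOR and RPS6KB1 had them below. AKT1S1 for example measured 25.1, 26.0 and 16.8 in the control libraries and 20.7, 48.5 and 53.5 in the Dox libraries. In the same libraries MITF was 451, 354 and 371, so that replicate 1 also held the most MITF of the MeWo Dox libraries. Whether the level of MITF, the culture or the library accounts for these values was not tested. Without that library, RRAGA, RRAGC, RICTOR, MAPKAP1 and RPS6KB1 were also called lower in MeWo and NPRL2, MLST8, AKT1S1 and RPS6KB2 also higher, while DEPTOR was no longer called.

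**Figure D3:**
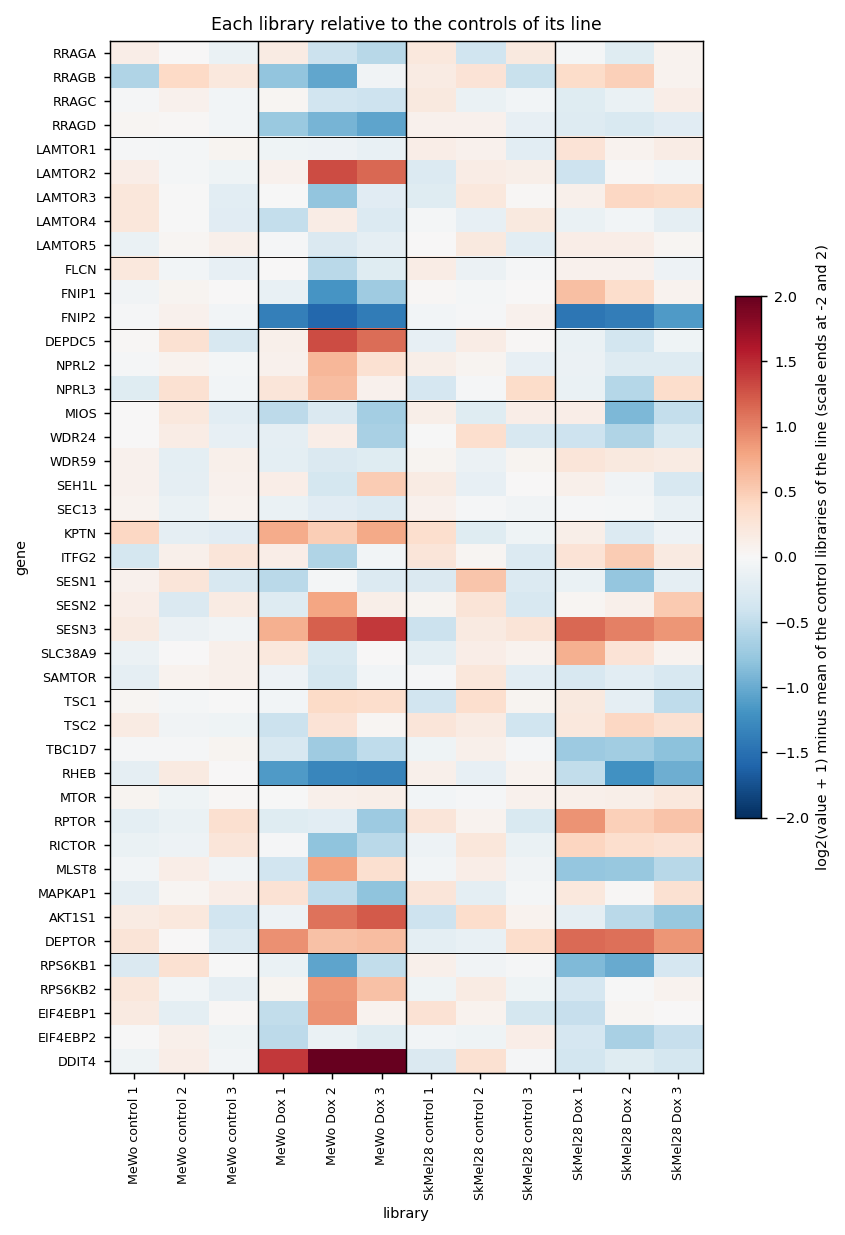
Value of each of the 43 genes (rows, ordered by complex) in each of the 12 libraries (columns), as log2(value + 1) minus the mean of the 3 control libraries of the same line, with the colour scale ending at −2 and 2. FNIP2 and RHEB are blue and SESN3 and DEPTOR red in all 6 Dox libraries, and MeWo Dox replicate 1 is paler than replicates 2 and 3 for LAMTOR2, DEPDC5 and AKT1S1.

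The lines also differed without Dox. Between the control groups 23 of 43 genes (53.5%) were called, beside 51.4% of all genes, of which 10 were higher in SkMel28 (26.6% of all genes) and 13 lower (24.8% of all genes). The largest called differences were those of SESN3, DDIT4, KPTN, LAMTOR1 and WDR59. SESN3 was 8.35, 6.60 and 6.80 in MeWo control and 23.4, 35.9 and 37.9 in SkMel28 control (log2 1.99, SE 0.21, adjusted p 6e-07). DDIT4 was 27.4, 32.2 and 28.2 in MeWo control and 77.4, 118 and 93.9 in SkMel28 control (log2 1.67, SE 0.22, adjusted p 5.04e-06). The control groups did not overlap for either gene, and the 3 MeWo Dox libraries of DDIT4 lay at or above the lowest SkMel28 control.

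KPTN was 4.61, 2.72 and 2.59 in MeWo control and 14.8, 9.52 and 10.7 in SkMel28 control (log2 1.57, SE 0.25, adjusted p 5.3e-05). LAMTOR1 was 300.05, 298 and 316 in MeWo control and 114, 109 and 88.9 in SkMel28 control (log2 −1.55, SE 0.11, adjusted p 4.79e-09). WDR59, a GATOR2 subunit, was 34.0, 27.6 and 34.3 in MeWo control and 12.5, 11.1 and 12.6 in SkMel28 control (log2 −1.33, SE 0.17, adjusted p 3.39e-06). These groups were all apart, and LAMTOR1 and WDR59 overlap LRTOMT and ZNRF1 on the other strand. FLCN (−1.20, adjusted p 8.31e-06), FNIP1 (−0.56, 0.0351), RHEB (−0.92, 0.00113) and DEPTOR (−0.83, 0.0066) were also lower in SkMel28 control, and FNIP2 (0.48, 0.00797), RRAGA (0.70, 0.00421) and MTOR (0.60, 0.000588) higher. RRAGD and TBC1D7 were not called between the control groups (−0.20 and −0.24).

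**Figure D4:**
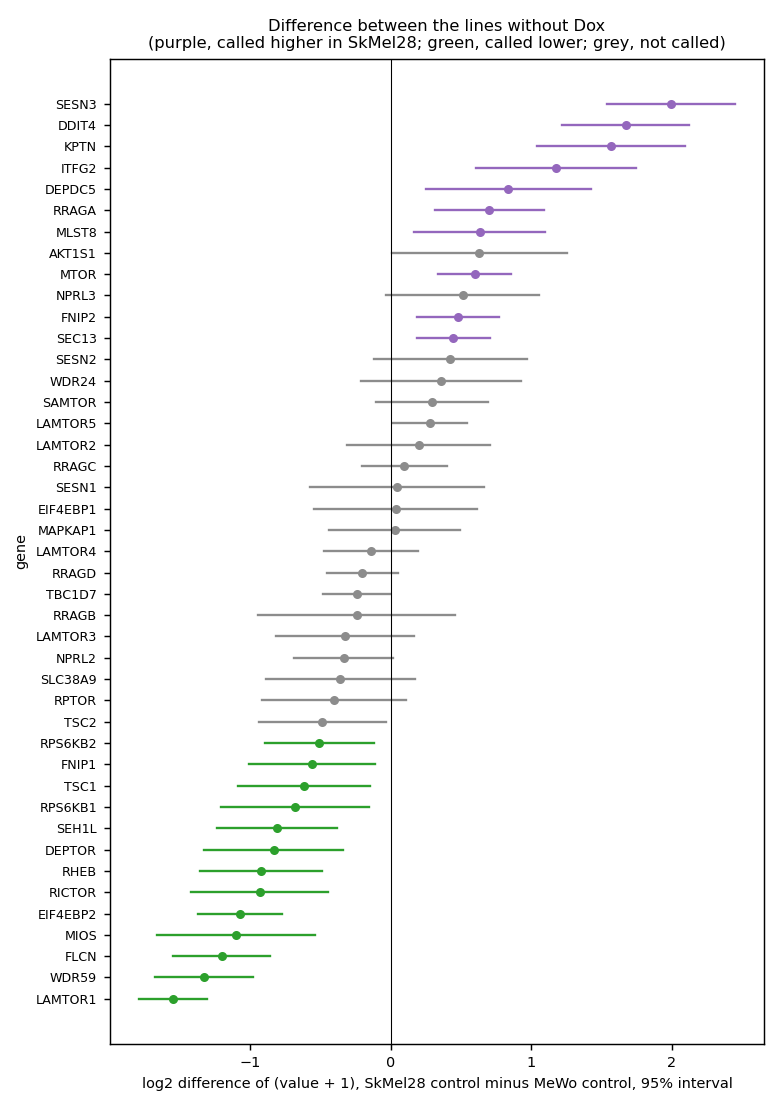
Difference between the control groups (SkMel28 minus MeWo) for the 43 genes on the log2(value + 1) scale, as the limma estimate with its 95% interval, sorted by size. Purple and green mark genes called higher and lower in SkMel28, from SESN3 (1.99) at the top to LAMTOR1 (−1.55) at the bottom.

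Beyond the 43 genes, 69 other genes of the pathway were listed by name and 65 were measured. In MeWo 12 of the 65 were called, 4 higher and 8 lower, beside 16.7% of all genes (8.58% higher and 8.12% lower). In SkMel28 7 of the 65 were called, 2 higher and 5 lower, beside 10.9% (5.88% and 5.04%). The genes called in both lines were SH3BP4, PIK3CD, AKT2 and PRR5, which all fell, 4 of 65 beside 1.79% of all genes. PIK3CD, a catalytic subunit of phosphoinositide 3-kinase, measured 372, 373 and 347 in the control libraries and 195, 211 and 228 in the Dox libraries of MeWo and 452, 475 and 509 in the control libraries and 284, 307 and 299 in the Dox libraries of SkMel28. It fell in both lines with no overlap (log2 −0.78, SE 0.10, adjusted p 3.66e-05 in MeWo and log2 −0.69, SE 0.10, adjusted p 0.000211 in SkMel28).

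PRR5, a subunit of mTOR complex 2, measured 15.3, 12.04 and 15.5 in the control libraries and 6.06, 6.82 and 7.11 in the Dox libraries of MeWo and 11.1, 9.52 and 9.58 in the control libraries and 4.16, 3.68 and 4.23 in the Dox libraries of SkMel28. It fell without overlap (log2 −0.99, SE 0.21, adjusted p 0.00352 and log2 −1.14, SE 0.21, adjusted p 0.00168). RICTOR and MAPKAP1 of the same complex were called in neither line. SH3BP4, a negative regulator of the Rag GTPases, measured 19.9, 24.1 and 24.0 in the control libraries and 15.0, 7.20 and 10.5 in the Dox libraries of MeWo and 68.2, 81.6 and 72.8 in the control libraries and 50.5, 50.1 and 36.9 in the Dox libraries of SkMel28. It fell in both (log2 −1.04, SE 0.21, adjusted p 0.00237 and log2 −0.69, SE 0.21, adjusted p 0.0429), and the SkMel28 call was kept in 11 of 23 alternatives and lost without any of the 6 control libraries or any SkMel28 Dox library (−0.77 to −0.55). The MeWo call of SH3BP4 was lost when MeWo was fitted alone (adjusted p 0.0848).

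AKT2, a kinase that acts upstream of the TSC complex, measured 604, 538 and 585 in the control libraries and 419, 471 and 442 in the Dox libraries of MeWo and 697, 655 and 782 in the control libraries and 387, 421 and 500.4 in the Dox libraries of SkMel28. It fell in both lines (log2 −0.37, SE 0.11, adjusted p 0.0332 and log2 −0.71, SE 0.11, adjusted p 0.000496), with every Dox library below every control library of its line. The MeWo call of AKT2 was lost with spike-in scaling (−0.10, adjusted p 0.749) and without any MeWo control or MeWo Dox replicate 3 (−0.42 to −0.34).

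Of the transcription factors controlled by this machinery, TFE3 measured 24.2, 25.3 and 20.4 in the control libraries and 36.7, 33.7 and 30.5 in the Dox libraries of MeWo and 23.7, 21.3 and 25.3 in the control libraries and 27.0, 25.7 and 24.8 in the Dox libraries of SkMel28. It rose in MeWo (log2 0.51, SE 0.16, adjusted p 0.0324), where the groups did not overlap but the call was lost without any MeWo control or MeWo Dox replicate 2 (0.43 to 0.57), and was not called in SkMel28 (log2 0.14, SE 0.16, adjusted p 0.661). The difference between the lines was not called (0.37, adjusted p 0.305). TFEB measured 4.03, 7.38 and 3.24 in the control libraries and 2.87, 6.82 and 6.10 in the Dox libraries of MeWo. In SkMel28 it measured 1.11, 1.59 and 0.766 in the control libraries and 0.297, 1.00 and 0.907 in the Dox libraries. TFEB was called in neither line (adjusted p 0.899 and 0.631). Its SkMel28 Dox libraries held 3 reads or fewer each, where a fall was not detectable.

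**Figure D5:**
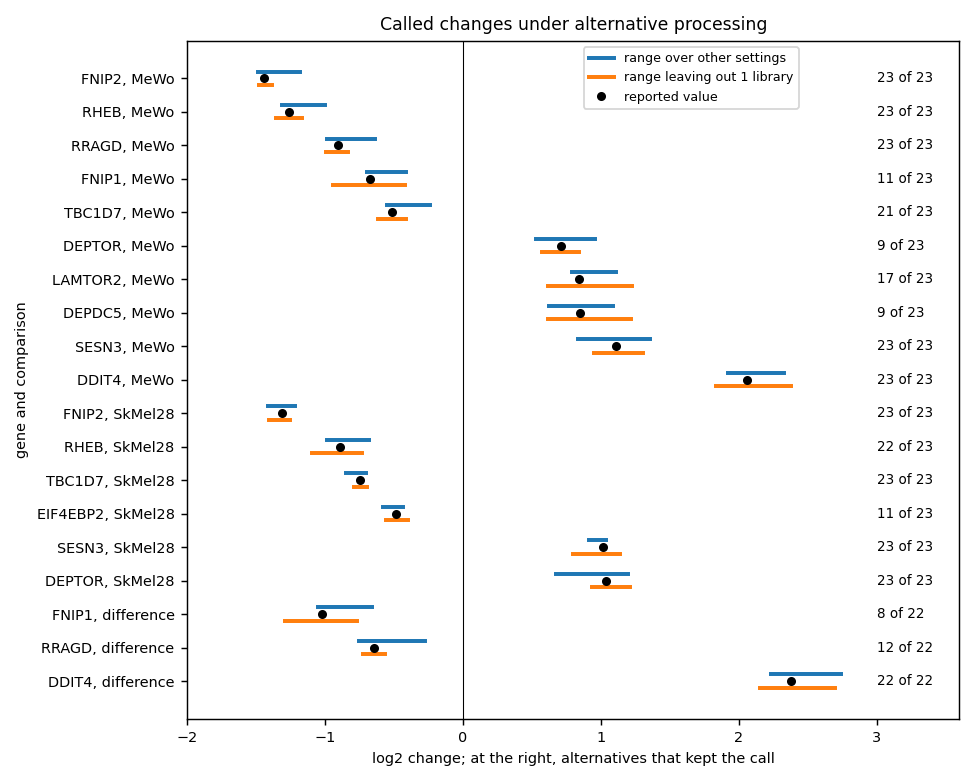
Each called change of the 43 genes (black point, log2 scale) with its range over 1 library left out at a time (orange) and over other normalizations, tests and settings (blue), for MeWo, SkMel28 and the difference between them. Numbers at the right give how many alternatives kept the call, from 8 of 22 for the FNIP1 difference to 23 of 23 for FNIP2 in both lines.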

How the data were processed

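The authors deposited a normalised signal per gene, made with edgeR per the labels, as reads per 1000000 of an effective library size. All values in every library came out as whole reads (100% within a tolerance of 0.001). The submitters' processing notes name FastQC 0.11.7, cutadapt 2.8, STAR 2.5.1b, edgeR and hg38. The counting tool, annotation and strand setting are not given in the sources used here. The table holds 12683 features, of which 67 spike-ins were set aside. Every feature had at least 1 in at least 3 libraries, so low genes had been removed.

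All 12 libraries entered a single fit of 4 group means to log2(value + 1), made in R 4.3.3 by limma 3.58.1 (lmFit, then eBayes with trend set). Tests were two-sided, with Benjamini-Hochberg adjustment over 12616 genes per contrast. The comparisons were Dox against control within a line, the difference of these changes (MeWo minus SkMel28) and SkMel28 control minus MeWo control. Alternatives were edgeR 4.0.16 quasi-likelihood and DESeq2 1.42.0 on the recovered reads, other scalings, pseudocounts, a stricter filter, no trend, a replicate block, each line alone and each library left out. The test was checked on simulated counts drawn with the same spread setting for all genes and groups. That check does not cover a group of wider spread such as MeWo Dox.

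The genes and lists were chosen with earlier results of these data known. Full values were given for MITF, genes called with Dox or in the difference, the Rag, FLCN and FNIP genes, DEPTOR, the 5 largest called differences between the control groups, other pathway genes called in both lines, and TFEB and TFE3. Some genes of the pathway and marker lists are not reported here. The description of MeWo Dox replicate 1 and the choice of promoter windows shown were made after the values were seen. Loci are from GENCODE release 44 (hg38), which held 42 of the 43 genes, and 12 of these overlap another listed gene. Intervals cover the spread between libraries only. At 3 reads or fewer in every library of a group, no fold is given.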

Additional observations from a re-analysis of the deposited data

Results flagged for a closer look

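For 3 of the 43 genes the change with Dox differed between the lines by the limma test of the difference itself (MeWo minus SkMel28). That is 6.98% of them, beside 7.09% of all genes. DDIT4 differed by 2.38 (adjusted p 0.000182), with 3 of 3 MeWo Dox libraries above all MeWo controls and 2 of 3 SkMel28 Dox libraries below all SkMel28 controls. FNIP1 differed by −1.02 (adjusted p 0.0486), with 3 of 3 Dox libraries below the controls in MeWo and 3 of 3 above them in SkMel28, and it was called in 8 of 22 alternatives. RRAGD differed by −0.64 (adjusted p 0.0297), with 3 of 3 Dox libraries below the controls in both lines, and it was called in 12 of 22 alternatives. The DDIT4 difference was called in all 22.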

How the results depend on the processing

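Of 1603 values for single genes under the alternatives, 1460 kept their direction and their side of the threshold, 111 lost a call, 8 gained one and 24 changed sign. FNIP2, SESN3 and DDIT4 in MeWo, RRAGD and RHEB in MeWo, TBC1D7 and DEPTOR in SkMel28, FNIP2 and SESN3 in SkMel28 and the DDIT4 difference kept their call in every alternative. The count of called genes in MeWo, 10, was 5 with each line fitted alone and 6 to 18 with 1 library left out, 18 being without MeWo Dox replicate 1 and 6 on leaving out control 2, control 3, Dox 2 or Dox 3 of MeWo. In SkMel28 the count of 6 ran from 4 to 8. The count for the difference, 3, was 6 with DESeq2, 6 with spike-in scaling, 1 without a mean-variance trend and 1 to 12 with 1 library left out. Between the control groups it ran from 18 to 27. The count called in both lines, 5, was 3 with each line fitted alone and 3 to 5 with 1 library left out.

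Scaling to the spike-ins moved the median of all genes by 0.22 in MeWo, −0.079 in SkMel28, 0.30 in the difference and 0.13 between the control groups. Relative to 0 it changed the sign of uncalled values in MeWo for RRAGC (0.016) and FLCN (0.0078), in SkMel28 for FLCN (−0.069), and in the difference for MITF (0.066), RRAGA (0.16), RRAGC (0.20), FLCN (0.077), FNIP2 (0.23), DEPTOR (0.0099), SH3BP4 (0.0072) and PIK3CD (0.28). A pseudocount of 5 gave −0.095 for the SESN3 difference. Leaving out 1 library also turned the sign of uncalled values, which ranged from −0.27 to 0.041 for RRAGA in SkMel28, −0.19 to 0.013 for RRAGC in SkMel28, −0.029 to 0.097 for FLCN in SkMel28, −0.060 to 0.31 for the SESN3 difference and −0.12 to 0.40 for TFEB in MeWo. The cause was not tested.

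Replicate numbers recur across groups, but the deviations of same-numbered libraries correlated at −0.18 to 0.22 over 18 pairs, with 2 above 0.1, and those of other pairs at −0.21 to 0.29, so the numbers were not taken to pair libraries. With a replicate block the counts were 9 in MeWo, 6 in SkMel28, 3 for the difference and 23 between the control groups, and 4 in both lines, without DEPTOR. With the block DEPTOR in MeWo (adjusted p 0.0631) and EIF4EBP2 (0.0609) and SH3BP4 (0.0623) in SkMel28 were no longer called, and MLST8 was called in SkMel28. A library left out leaves 2 in its group. RRAGB, WDR24 and SESN1 averaged under 5 and are limited by depth. No run without the low-value filter was possible, since the authors had applied theirs.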
